A study of Mus musculus with 12 samples.

Results

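Ileum was compared with duodenum across crypts, cultured organoids and villi of mouse small intestine, using poly(A) RNA-seq. The comparison takes 8 of the series' 12 libraries, chosen by their labelled origin. The ileum side has 2 crypt libraries, 1 organoid library and 1 villus library, and the duodenum side has the same 4. The 4 jejunal libraries are outside the fit and are given as levels only. Crypts and villi were freshly isolated, whereas organoids, which are epithelial cultures grown from crypts, had been cultured for 12 weeks. No genotype, transgene or treatment is named for any group, and nothing is said of strain, age or the number of animals. Organoid and villus libraries are single per origin, and nothing says that the crypt replicates came from separate animals. The p-values therefore measure only the spread between these samples, which may be technical.

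The small intestine runs from duodenum through jejunum to ileum. The duodenum receives gastric acid, bile and pancreatic juice and takes up much of the fat, sugar and iron. The ileum takes up bile acids and vitamin B12 and faces more bacteria. Its epithelium is renewed from stem cells in the crypts, where Paneth cells secrete antimicrobial peptides, and mature enterocytes cover the villi. Position along the gut is laid down in the embryo by transcription factors, among them the Hox genes.

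Across the 3 tissues, ileum differed from duodenum in a small set of genes. Paneth cell alpha-defensins, the bile acid carrier Fabp6, the Hoxb genes Hoxb7, Hoxb8 and Hoxb9, the factor Osr2 and the hormone Pyy rose in ileum. The factor Onecut2, the secreted lectin Reg1, the alcohol dehydrogenase Adh1, the lipoprotein receptor Scarb1 and the hormone ghrelin (Ghrl) fell. The fit was made on log2(RPKM + 1), where RPKM is reads per kilobase of exon scaled by the library's reads, with tissue as a covariate. A difference below is ileum minus duodenum on that scale unless another is named, and it understates the change of genes with low RPKM. Of 11284 genes tested, 26 passed at a limma adjusted p under 0.05, which is 0.230% of them. The 18 genes that were higher in ileum made 0.160% and the 8 that were lower made 0.0709%. At an unadjusted p under 0.05 there were 738 genes, or 6.54%.

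All 26 genes had 1 sign in crypts, organoids and villi, and also in each of the 4 ileum-duodenum pairs of libraries. They are called core regional genes here. A single sign in the 3 tissues was found for 3417 genes, 30.3% of all tested, and a single sign in the 4 pairs for 1818, or 16.1%. Having passed the fit favours both properties, so neither count adds support. In 24 of the 26, 16 higher and 8 lower in ileum, the difference was at least 1 in every tissue, against 0.824% of all genes. Hoxb8, at 0.99 in organoids, was among the exceptions. The 4 ileal values did not overlap the 4 duodenal ones for 13 of the 26 genes, against 102 genes, or 0.904%, of all tested. Hoxb7, Hoxb8, Hoxb9 and Pgc, which are among the 13, met the filter on low values through 1 group only. Having passed the fit favours large differences and a lack of overlap as well, so these counts add no support either.

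The count rests on few libraries. It was 162 genes, 1.44% of all, when the crypt replicate number was added as a block, with 113 higher (1.0%) and 49 lower (0.434%), and all 26 core genes were among them. Of these 162, 161 had 1 sign in the 3 tissues, the exception being Nos2, and 86 differed by at least 1 in each tissue. Leaving out 1 library gave 77 genes without duodenal crypt replicate 1, 8 without duodenal crypt replicate 2, 62 without ileal crypt replicate 1 and 15 without ileal crypt replicate 2. Without either villus library no gene passed, with a smallest limma adjusted p of 0.0506 without the duodenal and 0.0544 without the ileal one, and 472 genes at an unadjusted p under 0.05 in both cases. With no filter on low values no gene passed either (smallest limma adjusted p = 0.306 over 15722 genes, 895 at an unadjusted p under 0.05). All 26 kept their direction in each of the 20 alternatives tried.

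**Figure D1:**
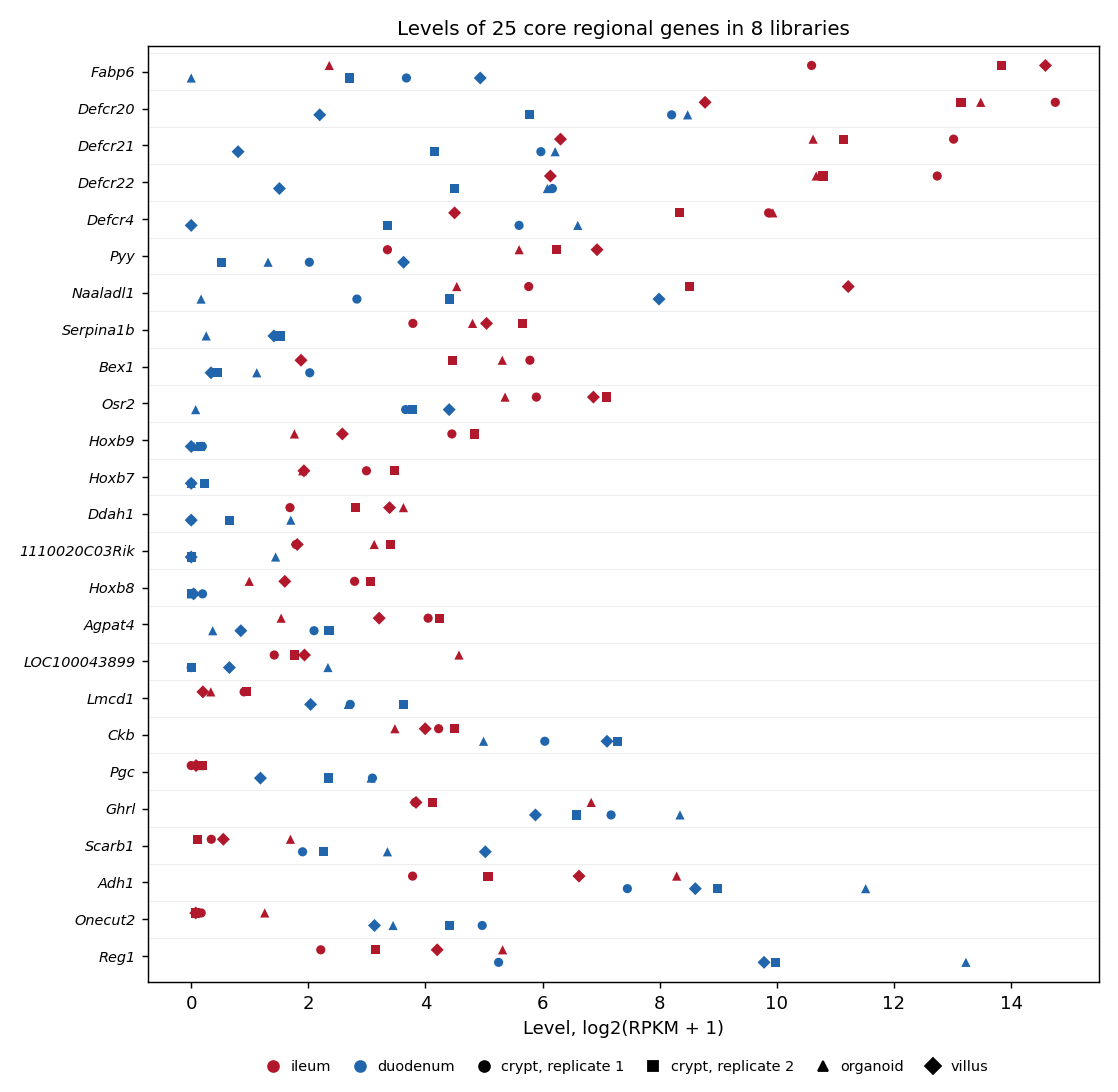
Levels of 25 of the 26 core genes in the 4 ileum (red) and 4 duodenum (blue) libraries, in log2(RPKM + 1), with 1 symbol per library and genes ordered by their difference. Fabp6 reached 24599 RPKM in ileal villi and 4.12 RPKM in ileal organoids, and Reg1 reached 9598 RPKM in duodenal organoids.

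The libraries held between 5268480 and 13781355 reads as implied by the RPKM values, with 44.3% to 75.8% of them in annotated genes, so that 1 read in a 2-kb gene was worth 0.0363 to 0.0949 RPKM. The labelled tissues carried their markers: the summed Paneth genes, with Defcr24 and Defcr6, which hold the same values in every library, counted once, reached 147669, 52048 and 99582 RPKM in the ileal crypt and organoid libraries and 2628 RPKM in ileal villi. The summed enterocyte genes were at 53424 RPKM in ileal villi and 103637 RPKM in duodenal villi. Within crypts they separated the replicates rather than the origins, at 1128 and 13305 RPKM in ileal crypt replicates 1 and 2 and at 1062 and 10049 RPKM in duodenal ones. The regional markers went with the labels. Defcr20 and Osr2 rose in ileum and Scarb1 fell, while Car2, the carbonic anhydrase of the duodenal epithelium, was lower in ileum in every pair without passing. It had 2.0, 0.870, 0.568 and 1.2 RPKM in ileum, against 4.35, 6.82, 6.14 and 32.9 RPKM in duodenum, in crypt replicates 1 and 2, organoids and villi. Its difference was -2.26 (SE 0.41, limma adjusted p = 0.0616, and 0.0245 with the block). Lists of 4 values keep this order of libraries throughout.

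Paneth cell defensins gave the largest group of ileal genes. Alpha-defensins are small cationic peptides that Paneth cells store in granules and release into the crypt lumen, where they kill bacteria. Of the 26 core genes, 4 belonged to this family: Defcr20 (now Defa20), Defcr21 (Defa21), Defcr22 (Defa22) and Defcr4. They lie within 1 Mb of each other on chromosome 8 of mm9, the build of the files, with Defcr20 at 22619727 to 22620708 and Defcr21 at 22165223 to 22166188. Alpha-defensins are a family of similar genes, so reads may be split among them and single values are uncertain. Their transcripts were not compared here. The 250 bases before the start of Defa20 and Defa21 are given here from RefSeq on GRCm38.p6 as the stretch the pair could share in control of transcription. Capitals mark the 5 positions at which they differ, which leaves them 98% identical, and Defa22 did not differ from Defa21 at any of the 250.
Defa20, chr8:21509008-21509257, forward strand: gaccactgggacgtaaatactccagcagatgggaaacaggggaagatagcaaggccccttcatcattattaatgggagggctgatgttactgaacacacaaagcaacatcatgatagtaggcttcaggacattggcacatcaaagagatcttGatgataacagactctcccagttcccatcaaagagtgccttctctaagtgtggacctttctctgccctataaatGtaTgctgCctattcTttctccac
Defa21, chr8:21025295-21025544, forward strand: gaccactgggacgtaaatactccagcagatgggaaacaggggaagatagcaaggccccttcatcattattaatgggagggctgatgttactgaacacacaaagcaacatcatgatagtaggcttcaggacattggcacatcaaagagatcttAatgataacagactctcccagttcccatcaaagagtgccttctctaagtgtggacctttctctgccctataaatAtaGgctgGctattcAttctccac

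Defcr20 was measured at 27651, 9051, 11442 and 437 RPKM in ileum, against 294, 53.7, 355 and 3.58 RPKM in duodenum. Each ileal library was above all 4 duodenal ones, although villi held far less than crypts at either end. The difference was 6.38 (SE 0.66, limma adjusted p = 0.00453). Defcr21 had 8297, 2259, 1572 and 78.1 RPKM in ileum, against 61.7, 16.7, 73.3 and 0.741 RPKM in duodenum, a difference of 5.99 (SE 0.62, limma adjusted p = 0.00453). Defcr22 had 6834, 1766, 1632 and 69.2 RPKM in ileum, against 70.9, 21.5, 66.8 and 1.84 RPKM in duodenum, a difference of 5.52 (SE 0.59, limma adjusted p = 0.00453). Only its villus value fell inside the duodenal range. Defcr4 had 928, 322, 976 and 21.6 RPKM in ileum, against 47.5, 9.25, 96.1 and 0 RPKM in duodenum. Its difference of 4.27 (SE 0.54, limma adjusted p = 0.0105) was the smallest of the 4 defensins.

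The other Paneth cell genes were also higher in ileum, by less. Of 13 tested symbols on the Paneth list, Defcr24 and Defcr6 are 1 measurement, which leaves 12. Of these, 4 rose, the defensins above, none fell, and 10 rose with the replicate block. All 12 were higher in ileum in each of the 3 tissues, with a median difference of 2.21, where 61.1% of all tested genes were higher in ileum with a median of 0.06. Over the 13 symbols the median was 1.98 in crypts, 1.79 in organoids and 3.30 in villi, the tissue with the lowest summed Paneth levels. Paneth cells lie in crypts, and the part of crypt cells in the single villus library of each origin was not tested. Lysozyme (Lyz, now Lyz1), which cleaves bacterial cell walls, had 11813, 3466, 5091 and 204 RPKM in ileum, against 3661, 1031, 2715 and 18.6 RPKM in duodenum. It differed by 1.93 (limma adjusted p = 0.477, and 0.0425 with the block). Mmp7, the protease that activates mouse alpha-defensins, differed by 2.05 (limma adjusted p = 0.178, and 0.0016 with the block). The angiogenin Ang4, an antimicrobial ribonuclease of Paneth cells, differed by 2.36 (limma adjusted p = 0.149, and 0.00554 with the block). In these bulk libraries fewer cells of a type and less RNA per cell cannot be told apart.

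Hoxb7, Hoxb8 and Hoxb9 rose in ileum and were close to 0 in every duodenum library. No duodenum library reached the equivalent of 10 reads for any of the 3, so they met the filter through ileum alone and had to differ. Their p-values are no independent support. These homeodomain factors lie side by side on chromosome 11, Hoxb9 at 96132643 to 96137906 and Hoxb7 at 96147959 to 96151476 on the forward strand. Hoxb9 was at 20.9, 27.6, 2.39 and 4.98 RPKM in ileum, against 0.141, 0.118, 0.0342 and 0 RPKM in duodenum. Every ileal library stood above all duodenal ones, with crypts highest and organoids lowest. Its difference was 3.31 (SE 0.42, limma adjusted p = 0.0109). Hoxb7 had 6.96, 10.1, 2.74 and 2.80 RPKM in ileum, against 0, 0.167, 0 and 0 RPKM in duodenum, a difference of 2.52 (SE 0.27, limma adjusted p = 0.00453). Hoxb8 had 5.92, 7.36, 0.988 and 2.03 RPKM in ileum, against 0.144, 0, 0 and 0.0289 RPKM in duodenum, a difference of 2.05 (SE 0.30, limma adjusted p = 0.0241). Organoids kept 1.71 of the 4.47 seen in crypts for Hoxb9, 1.90 of 3.12 for Hoxb7 and 0.99 of 2.83 for Hoxb8. These are differences of 1 organoid pair.

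Of 39 Hox genes, 9 were tested, 3 rose, and 5 rose with the block, which added Hoxb6 and Hoxb3. Among those that rose, Hoxb6, Hoxb7, Hoxb8 and Hoxb9 met the filter through ileum alone, so the count adds no support. All 9 were higher in ileum over the 3 tissues together, as were 61.1% of all tested genes. In each tissue 8 were higher, the exception being Hoxa3, at -0.08 in villi. The median difference was 1.75, with 2.84 in crypts, 0.56 in organoids and 0.93 in villi. Hoxb6 had 17.8, 21.7, 0.274 and 4.81 RPKM in ileum, against 0.431, 0.241, 0 and 0.347 RPKM in duodenum (limma adjusted p = 0.0804, and 0.0363 with the block). Because Hoxb6 met the filter through ileum alone, it had to differ, and its p-values are no independent support. The ileal organoid level of Hoxb6 was close to that of the duodenal crypts. Hoxb5 had 8.43, 8.83, 0.574 and 0.653 RPKM in ileum, against 0.601, 0, 0 and 0.161 RPKM in duodenum (limma adjusted p = 0.143, and 0.0727 with the block).

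Osr2, a zinc finger factor of the odd-skipped family, was higher in ileum by 3.32 (SE 0.48, limma adjusted p = 0.0233). It had 58.4, 135, 40.1 and 116 RPKM in ileum, against 11.7, 12.8, 0.0540 and 20.2 RPKM in duodenum, with no overlap. Organoids showed the widest gap, 5.28 against 2.77 in crypts and 2.46 in villi, with a duodenal level close to 0. Among 21 intestinal factors tested, 2 rose, Osr2 being 1 of them, and none fell, with a median of 0.44, and 3 rose with the block. The gut-wide factors Cdx2 and Cdx1 differed by 0.53 and 0.88 without passing (limma adjusted p = 1.0 and 0.785, and 0.601 and 0.203 with the block), and Gata6 by -0.29 (limma adjusted p = 1.0, and 0.885 with the block).

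Onecut2, a homeodomain factor of foregut-derived epithelium, fell in ileum. It had 0.125, 0.0509, 1.39 and 0.0555 RPKM in ileum, against 30.3, 20.3, 9.91 and 7.75 RPKM in duodenum. The 4 duodenal libraries all lay above the ileal ones, of which the organoids alone exceeded 1 RPKM. It fell by 3.60 (SE 0.40, limma adjusted p = 0.00453). Of 4 proximal factors tested, 1 fell and 3 fell with the block, with a median of -2.04. Gata4, which drives jejunal and duodenal enterocyte genes, had 3.29, 11.7, 7.68 and 19.5 RPKM in ileum, against 39.1, 95.2, 19.2 and 47.3 RPKM in duodenum (limma adjusted p = 0.143, and 0.0161 with the block). Pdx1, the factor of pancreas and proximal duodenum, had 0, 0, 0.0564 and 0.192 RPKM in ileum, against 0.147, 6.84, 4.81 and 4.04 RPKM in duodenum (limma adjusted p = 0.169, and 0.0315 with the block). Its level in duodenal crypt replicate 1 lay inside the ileal range. Pdx1 reached the equivalent of 10 reads in no ileum library, so it met the filter through duodenum alone. Its p-values are no independent support.

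**Figure D2:**
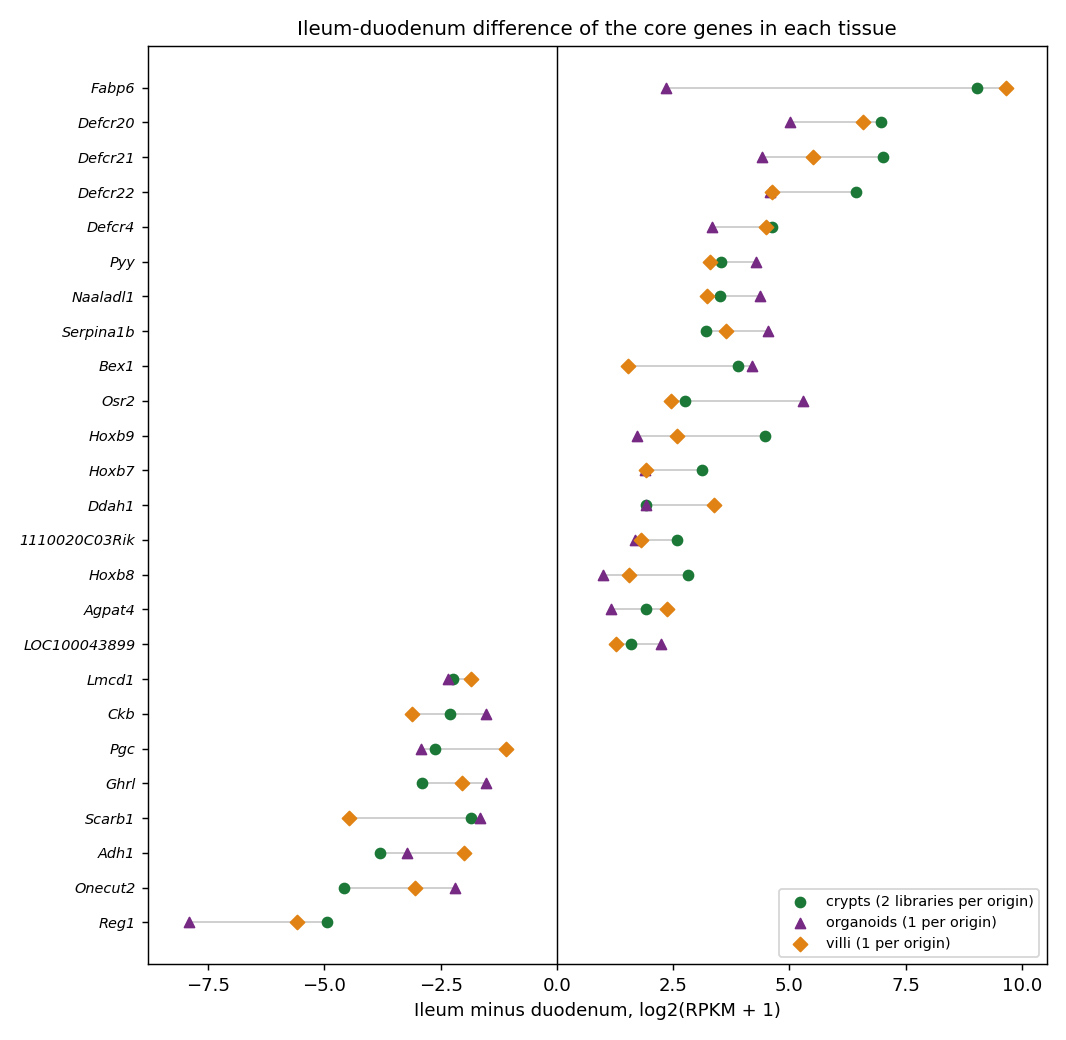
Ileum minus duodenum difference in log2(RPKM + 1) of 25 of the 26 core genes in crypts (means of 2 libraries per origin), organoids and villi (1 library per origin each). All differences share 1 sign per gene, and Fabp6 spans 2.36 in organoids to 9.65 in villi.

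Fabp6, the ileal bile acid-binding protein that carries bile acids through the enterocyte, had the largest difference among the 26 genes, 7.52 (SE 1.09, limma adjusted p = 0.0233). It lies on chromosome 11 at 43409613 to 43415012 on the reverse strand. Its level was 1544, 14643, 4.12 and 24599 RPKM in ileum, against 11.8, 5.48, 0 and 29.6 RPKM in duodenum. Ileal crypts and villi were far above every duodenal library, but ileal organoids were below duodenal crypts. The 250 bases before its start are shown as those of the gene with the widest range, with the letters TTTATA in capitals, the reverse complement of TATAAA, read on the gene's strand from RefSeq on GRCm38.p6.
Fabp6, chr11:43601563-43601812, reverse strand: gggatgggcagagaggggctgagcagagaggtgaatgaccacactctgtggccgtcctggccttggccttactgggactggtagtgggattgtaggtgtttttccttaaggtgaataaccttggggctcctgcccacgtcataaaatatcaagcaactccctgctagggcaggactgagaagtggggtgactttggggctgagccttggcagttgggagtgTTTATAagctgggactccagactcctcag

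The letters TATAAA, on either strand, were found in 8 of the 18 core genes with a promoter entry (Ckb, Defa20, Defa21, Defa22, Fabp6, Hoxb8, Pgc and Reg1) and in 12.4% of all 32851 windows of that length. The 3 defensin windows share nearly all of their letters and are not separate cases. AGATAA, a core of GATA sites, was in 1 core window, that of Adh1, and in 9.99% of all. CAATAAA, as found in CDX sites, was in 1, that of Hoxb8, and in 4.20% of all. CAAAGTCCA, as bound by HNF4, was in no core window and in 0.384% of all. TATAAA and CAATAAA end in the same letters, and each was searched as written. A match is a match of letters only.

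Further bile acid genes passed with the block. Of 11 tested, 1 rose and 6 rose with the block, none fell, and the median was 1.84. The uptake carrier Slc10a2 had 1.44, 33.1, 1.69 and 43.5 RPKM in ileum, against 0, 0, 0 and 0.0938 RPKM in duodenum (limma adjusted p = 0.143, and 0.0331 with the block). Ileal organoids, at 1.69 RPKM, were above all duodenal libraries. Slc10a2 reached the equivalent of 10 reads in no duodenum library, so it met the filter through ileum alone and had to differ. Its p-values are no independent support. Fgf15, the hormone that ileal enterocytes send to the liver to limit bile acid synthesis, had 1.67, 23.9, 28.9 and 204 RPKM in ileum, against 0.105, 0.176, 2.76 and 0.0845 RPKM in duodenum (limma adjusted p = 0.0980, and 0.0268 with the block). The exporter subunits Osta and Ostb (now Slc51a and Slc51b) differed by 2.10 and 2.79 (limma adjusted p = 0.556 and 0.201, and 0.0358 and 0.0012 with the block). The bile acid receptor Nr1h4 differed by 1.84 (limma adjusted p = 0.143, and 0.0192 with the block). Its target Nr0b2 pointed the other way, at -1.18 (limma adjusted p = 0.219, and 0.102 with the block), with 0.1, 0.348, 0.714 and 13.9 RPKM in ileum, against 2.21, 2.85, 4.46 and 13.9 RPKM in duodenum.

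Hormone genes split by region. Pyy, which encodes peptide YY of distal enteroendocrine cells and slows gut transit, had 9.20, 74.5, 47.5 and 121 RPKM in ileum, against 3.05, 0.426, 1.48 and 11.3 RPKM in duodenum. It rose by 3.66 (SE 0.57, limma adjusted p = 0.0271), and the ileal value of crypt replicate 1 lay below that of duodenal villi. Ghrl, which encodes the appetite hormone ghrelin, had 13.2, 16.4, 113 and 13.3 RPKM in ileum, against 143, 94.2, 324 and 57.8 RPKM in duodenum. It fell by 2.34 (SE 0.37, limma adjusted p = 0.0271), and ileal organoids reached the range of duodenal crypts. Of 16 enteroendocrine genes tested, these 2 passed, and 4 passed with the block, 2 in each direction, with a median of -0.58. The block added the incretin gene Gip at -2.53 (limma adjusted p = 0.0717, and 0.00663 with the block) and neurotensin (Nts) at 2.90 (limma adjusted p = 0.0959, and 0.0245 with the block). Cck, the cholecystokinin gene, had 7.65, 13.2, 945 and 10.2 RPKM in ileum, against 70.7, 41.9, 578 and 105 RPKM in duodenum. Its organoids thus differed in sign from crypts and villi, and it passed in neither fit (limma adjusted p = 0.381, and 0.175 with the block).

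Naaladl1, a brush border peptidase of ileal enterocytes, had 53.3, 364, 22.2 and 2383 RPKM in ileum, against 6.11, 20.3, 0.124 and 253 RPKM in duodenum. It rose by 3.66 (SE 0.58, limma adjusted p = 0.0294), with each ileal value above the duodenal one of the same tissue and replicate. Of 19 genes of peptide digestion and uptake, this 1 rose, 5 rose with the block, none fell, and the median was 0.76. Mep1a, a subunit of the brush border protease meprin, had 24.4, 234, 18.7 and 752 RPKM in ileum, against 3.31, 12.5, 15.8 and 67.3 RPKM in duodenum (limma adjusted p = 0.288, and 0.0333 with the block). The organoid values were close to each other at the 2 ends. Xpnpep2 and Enpep, further membrane aminopeptidases, differed by 2.33 and 1.36 (limma adjusted p = 0.322 and 1.0, and 0.0254 and 0.0315 with the block).

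Serpina1b, a secreted protease inhibitor of the alpha-1-antitrypsin family, had 12.8, 49.4, 26.9 and 32.0 RPKM in ileum, against 1.86, 1.86, 0.194 and 1.66 RPKM in duodenum. The groups were far from overlapping, and it rose by 3.65 (SE 0.41, limma adjusted p = 0.00518). Reads may be shared with its related paralogs, of which Serpina1e differed by 1.02 (limma adjusted p = 0.276, and 0.107 with the block) and Serpina1c by 0.38 (limma adjusted p = 0.853, and 0.491 with the block). Bex1, a small X-linked adaptor protein, had 54.1, 21.1, 38.7 and 2.67 RPKM in ileum, against 3.07, 0.367, 1.17 and 0.265 RPKM in duodenum, a difference of 3.38 (SE 0.51, limma adjusted p = 0.0247). Its ileal villi fell within the duodenal range. The remaining ileal core genes were low. Ddah1, which breaks down methylated arginine, had 2.22, 5.97, 11.3 and 9.46 RPKM in ileum, against 0, 0.574, 2.25 and 0 RPKM in duodenum, and differed by 2.29. Agpat4, an acyltransferase of phospholipid synthesis, had 15.5, 17.8, 1.90 and 8.25 RPKM in ileum, against 3.28, 4.11, 0.290 and 0.8 RPKM in duodenum, and differed by 1.84. 1110020C03Rik (now Cfap57) and LOC100043899 (now R3hdml) differed by 2.17 and 1.67 and lay between 1.67 and 22.8 RPKM in ileum, against 0 to 4.04 RPKM in duodenum.

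Reg1 had the largest fall among the 26 genes. It encodes a secreted C-type lectin of the regenerating family, known from pancreas and proximal gut. It had 3.63, 7.85, 38.9 and 17.4 RPKM in ileum, against 37.0, 1005, 9598 and 879 RPKM in duodenum. It fell by 5.84 (SE 0.88, limma adjusted p = 0.0247), most in organoids at -7.91, and the lowest duodenal value lay just below the highest ileal one. Reg1 is also made by the acinar cells of the pancreas. Of 14 acinar genes 6 were tested and none passed, with summed levels of 9.56 to 48.0 RPKM in ileum and 14.6 to 55.8 RPKM in duodenum. The defining genes Cpa1, Cpb1 and Pnlip were listed at 0 in all 4 ileum libraries and reached at most 0.361, 0.381 and 0.511 RPKM in duodenum. Their part in the result was not tested. The related lectins Reg3g and Pap (now Reg3b), which bind bacteria, went the other way, with differences of 2.97 and 3.30 (limma adjusted p = 0.107 and 0.159, and 0.000855 and 0.00129 with the block). Reg3g had 270, 1353, 7976 and 1312 RPKM in ileum, against 29.2, 108, 1468 and 207 RPKM in duodenum. Of 10 antimicrobial genes outside the defensins 1 fell, which was Reg1, and none rose, whereas 5 rose with the block, and the median was 1.54. The block added Duox2, Duoxa2 and Nos2, genes of reactive oxygen and nitric oxide production, at 1.52, 2.28 and 1.95 (limma adjusted p = 0.0499, 0.0326 and 0.0499 with the block, and 0.113, 0.0996 and 0.137 without). In organoids these 3 differed by 0.21, 0.44 and -0.07.

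Adh1, which oxidises ethanol and retinol, had 12.7, 32.5, 312 and 97.5 RPKM in ileum, against 174, 508, 2930 and 389 RPKM in duodenum. It fell by 3.20 (SE 0.52, limma adjusted p = 0.0327), with ileal organoids inside the duodenal range. Of 15 genes of alcohol and retinoid metabolism this 1 fell, 3 fell with the block, none rose, and the median was -0.29. The block added its neighbour Adh6a at -3.42 (limma adjusted p = 0.0972, and 0.00596 with the block) and the retinol carrier Rbp2 at -2.79 (limma adjusted p = 0.510, and 0.00284 with the block). Rbp2 had 12.3, 267, 240 and 993 RPKM in ileum, against 166, 2580, 786 and 5794 RPKM in duodenum.

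Scarb1, the high-density lipoprotein receptor of the enterocyte surface, had 0.269, 0.0779, 2.24 and 0.462 RPKM in ileum, against 2.74, 3.78, 9.20 and 31.5 RPKM in duodenum, without overlap. It fell by 2.46 (SE 0.42, limma adjusted p = 0.0494), with -1.85 in crypts, -1.66 in organoids and -4.47 in villi. It stood nearest the threshold among the genes that passed, behind Ckb (limma adjusted p = 0.0442) and Adh1. Just outside it were the lower-in-ileum genes Otop3, Afp and Mxra7, each at a limma adjusted p of 0.0580. Of 25 genes of fat and cholesterol handling 1 fell, 4 fell with the block, none rose, and the median was -0.03. Fabp1, the main fatty acid carrier of the proximal gut, had 1.59, 19.4, 266 and 137 RPKM in ileum, against 72.9, 1133, 1131 and 2900 RPKM in duodenum. It differed by -4.28 (SE 0.92, limma adjusted p = 0.116, and 0.00156 with the block). The apolipoprotein Apoa4 differed by -3.19 (limma adjusted p = 0.321, and 0.0143 with the block), with -3.89 in crypts, -0.67 in organoids and -4.31 in villi.

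Of the other genes that fell, Pgc encodes the pepsinogen of gastric and Brunner gland cells. It had 0, 0.141, 0.105 and 0.0596 RPKM in ileum, against 7.54, 4.06, 7.41 and 1.27 RPKM in duodenum, a fall of 2.32 (SE 0.31, limma adjusted p = 0.0128). No ileum library reached the equivalent of 10 reads, so Pgc met the filter through duodenum alone and had to differ. Without Pgc, the other 6 Brunner gland and stomach markers summed to 1.52, 0.486, 5.85 and 0.427 RPKM in ileum, against 2.47, 34.3, 48.6 and 0.145 RPKM in duodenum, so villi differed in sign from the other pairs. Of 3 tested on that list, Pgc itself was the 1 that fell. Tff2, of the same list, had 0.979, 0, 5.85 and 0.289 RPKM in ileum, against 0.997, 23.2, 48.0 and 0 RPKM in duodenum (limma adjusted p = 0.647, and 0.330 with the block). The part of these cells in the result was not tested. Ckb, the brain-type creatine kinase, had 17.7, 21.7, 10.1 and 14.9 RPKM in ileum, against 64.7, 155, 30.8 and 136 RPKM in duodenum, a fall of 2.30 (SE 0.39). Lmcd1, a LIM domain cofactor of transcription, had 0.870, 0.932, 0.261 and 0.148 RPKM in ileum, against 5.57, 11.3, 5.42 and 3.11 RPKM in duodenum, a fall of 2.17 (SE 0.26, limma adjusted p = 0.00621).

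**Figure D3:**
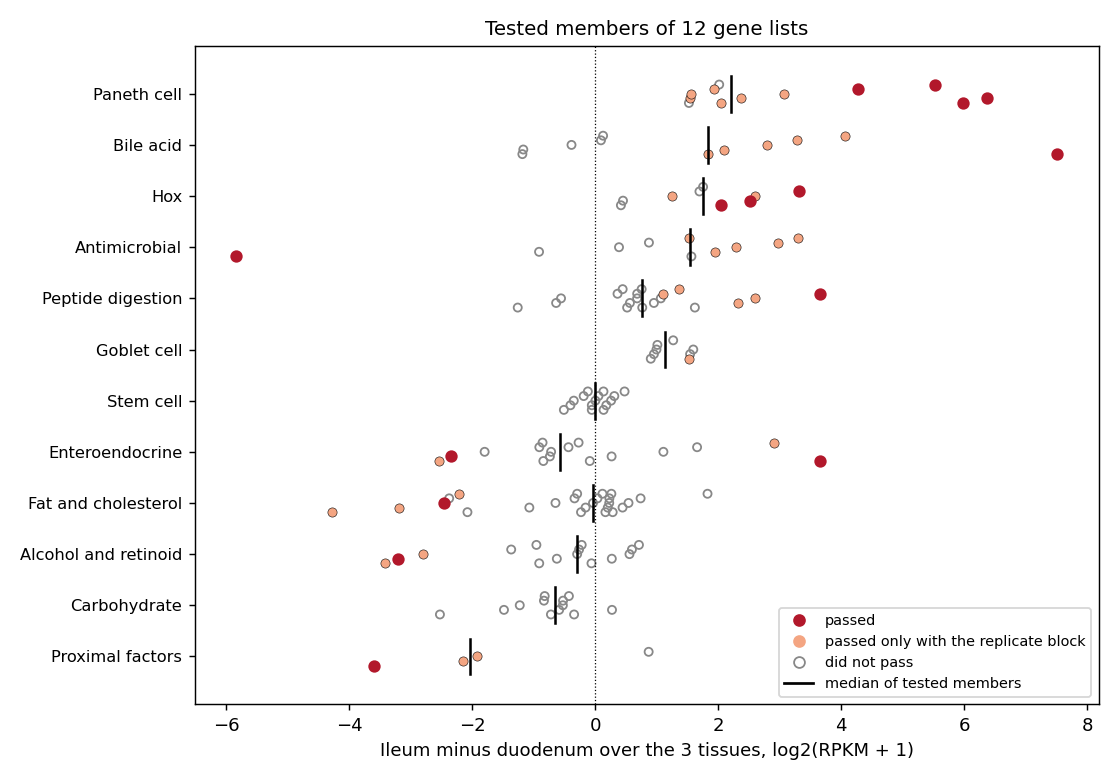
Ileum minus duodenum difference in log2(RPKM + 1) over the 3 tissues for the tested members of 12 gene lists, with 1 point per gene and a bar at each list's median. Filled red points passed, orange points passed only with the replicate block, and the medians run from 2.21 for Paneth cell genes to -2.04 for proximal factors.

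Many functions taught as regional had no gene that passed. Of 12 tested genes of sugar digestion and uptake none passed in either fit, with a median of -0.65. Over the 3 tissues together 11 were lower in ileum, where 61.1% of all tested genes were higher. Only 4 of the 12 were lower in each tissue. The median was -1.10 in crypts, 0.25 in organoids and -0.68 in villi. The sugar carrier Slc2a2 had 0.0907, 0.790, 13.1 and 2.51 RPKM in ileum, against 1.39, 53.8, 12.4 and 59.5 RPKM in duodenum (limma adjusted p = 0.477, and 0.122 with the block). The pair of organoid values lay close together. None of 5 vitamin B12, 7 iron and 3 calcium genes passed in either fit. The B12 receptor Cubn had 1.34, 24.7, 0.0961 and 58.4 RPKM in ileum, against 0.0838, 1.81, 0.0163 and 32.6 RPKM in duodenum (limma adjusted p = 0.898, and 0.223 with the block). No stem cell gene of 15 passed in either fit, and their median was 0.00. Their summed levels were 1349, 261, 1204 and 83.8 RPKM in ileum, against 754, 710, 985 and 89.4 RPKM in duodenum. The crypt pairs thus went opposite ways in replicates 1 and 2. Of 17 general enterocyte genes none passed, with 1 rising and 2 falling with the block, and a median of -0.43. Of 8 goblet cell genes none passed and 1 rose with the block, Agr2. All 8 were higher in ileum over the 3 tissues together, against 61.1% of all tested genes, with a median of 1.14. Only 5 of them were higher in each tissue, and the median was 1.41 in crypts, 0.13 in organoids and 1.53 in villi. Carbonic anhydrases (9), glutathione transferases (18) and cytochromes P450 (14) had no gene that passed and 1 each that fell with the block. Markers of lymphocytes, follicle epithelium, stroma, endothelium and tuft cells had none in either fit. Of 7 myeloid and antigen-presenting markers none passed and 1 rose with the block. Lymphocyte markers summed to 63.3 RPKM in ileal villi and 207 RPKM in duodenal villi, and to at most 4.60 RPKM elsewhere in ileum and 7.16 RPKM elsewhere in duodenum. Stroma and muscle markers summed to 76.4 RPKM in ileal villi and 28.3 RPKM in duodenal villi. Erythrocyte markers, none of them tested, summed to 39.0 RPKM in ileal villi and 11.6 RPKM in duodenal villi. The part of these cells in the villus differences was not tested.

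The core differences were set side by side in the 3 tissues. The median difference of the 18 ileal genes was 3.36 in crypts, 2.84 in organoids and 2.91 in villi, and that of the 8 duodenal genes was -2.76, -2.27 and -2.55. The difference was smallest in organoids for 15 of the 26 genes, in villi for 8 and in crypts for 3. The fit that chose the genes held more crypt pairs than organoid or villus pairs, which favours genes with large crypt differences. These medians and counts therefore do not rank the tissues, and the same counts over all genes were not made. Whether organoids or villi differ from crypts in the ileum-duodenum difference was tested over all 12 libraries, with single libraries assumed to vary like the crypt ones. No gene passed with limma for either tissue (0 of 11284, 0.00%), in the fit on log2(RPKM + 1), with the block, or in limma-voom on recovered reads. At an unadjusted p under 0.05 there were 131 genes for organoids (1.16%) and 224 for villi (1.99%). For Fabp6 the organoid difference minus the crypt difference was -6.67 (SE 1.86), and for Scarb1 the villus difference minus the crypt difference was -2.62 (SE 0.56). Neither passed, and a p that misses the threshold does not show that the tissues are alike. Slc1a3, a glutamate carrier, was among the genes with the smallest p for villi, with differences of -2.83 in crypts, -2.15 in organoids and -0.14 in villi.

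Jejunal levels of the core genes mostly lay between the ends. Jejunum had no part in choosing the genes, but they were chosen for a gap between the ends, which favours a level inside it. The share over all tested genes was not computed, so the counts add no support. In crypts 25 of the 26 core genes had a jejunal level strictly between the ileal and the duodenal one, in organoids 20, in villi 23, and in all 3 tissues 19. In organoids 2 more and in villi 2 more, all Hoxb genes, were listed at 0 in both jejunum and duodenum. On a scale where 1 is the ileal level and 0 the duodenal one in log2(RPKM + 1), the median position was 0.36 for the 18 genes higher in ileum and 0.51 for the 8 lower ones. Hoxb8, Hoxb9 and Hoxb7 were lowest on it, at -0.01, -0.01 and 0.09. Hoxb9 had 20.9, 27.6, 2.39 and 4.98 RPKM in ileum, 0.297, 0, 0 and 0 RPKM in jejunum, and 0.141, 0.118, 0.0342 and 0 RPKM in duodenum. Jejunum thus resembled duodenum in these 3 genes and in Fabp6, at 0.14, which had 15.7, 50.8, 0.556 and 18.4 RPKM in jejunum. Defcr20 and Osr2, both at 0.69, were nearer the ileal level. Defcr20 had 8167, 3260, 2977 and 67.9 RPKM in jejunum, and Osr2 had 43.1, 58.5, 25.2 and 46.8 RPKM. Onecut2 had 5.51, 7.45, 6.73 and 1.29 RPKM in jejunum, at 0.41, and Reg1 had 12.1, 47.8, 219 and 52.3 RPKM, at 0.65. The jejunum was nearer duodenum in all 3 tissues for 10 core genes and nearer ileum in all 3 for 5. The spread of these positions rests on single libraries in organoids and villi.

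**Figure D4:**
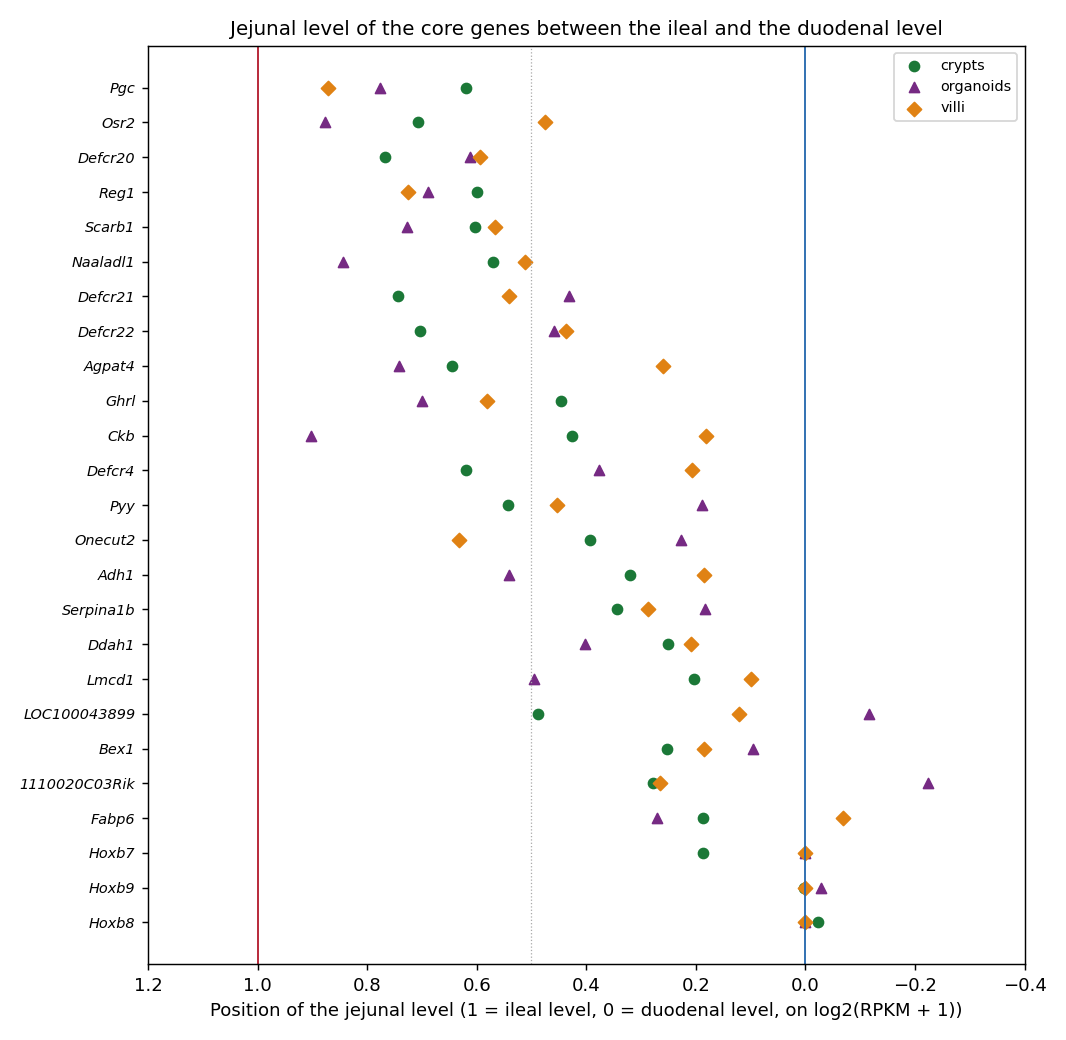
Position of the jejunal level of core genes between the ileal level (1, left) and the duodenal level (0, right) in crypts, organoids and villi, from log2(RPKM + 1). The Hoxb genes sit at or near the duodenal line, and 25 of the 26 core genes are shown.

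The core genes lay on 14 chromosomes. Within 1 Mb of another core gene were 7 of them, the 4 defensins on chromosome 8 and the 3 Hoxb genes on chromosome 11. No core gene overlapped another annotated gene or shared all its values with another symbol. Hoxb7, Hoxb8, Hoxb9 and Pgc met the filter on low values through 1 group only, and the other 22 core genes through both.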

How the data were processed

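Per the labels' protocols, poly(A) RNA was selected with a Poly(A)Purist MAG kit and an mRNA-ONLY kit, and libraries from a SOLiD Total RNA-Seq kit gave 50-bp reads on a SOLiD 4 instrument. Reads were aligned with BWA to mm9, per the submitters' processing notes. The sources used here do not give versions, gene models, the counting rule, any use of strand, or whether a first base is counted from 0 or 1. Per the file headers, the deposited values are RPKM, 1 per transcript row.

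For each of 19012 symbols among 21247 rows the row with the longest exons was kept. RPKM values were multiples of 1 read, so reads could be recovered, with no fewer than 99.9535% of a library's values whole within 0.02 of a read. Symbols are those of the files, and a current symbol was found for 18507 of them through RefSeq accessions. Tested genes reached 10 reads, taken at the median depth, in 3 or more of the 8 libraries. limma 3.58.1 (R 4.3.3) was fitted to log2(RPKM + 1) with terms for tissue and origin and a mean-variance trend, which leaves 4 residual degrees of freedom. Tests are two-sided. The p-values of all 11284 genes were adjusted together (Benjamini-Hochberg), and 0.05 was the threshold. The test for counts that the plan also held was not used, because the files hold RPKM. Tissue differences were tested over all 12 libraries with 1 mean per tissue and origin, which leaves 3 residual degrees of freedom. The fits were tested on simulated data first.

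Crypt replicates carry the numbers 1 and 2 in the labels of every origin. Deviations of same-numbered crypt libraries from their group means correlated at 0.499 between ileum and duodenum, 0.789 between ileum and jejunum and 0.415 between jejunum and duodenum over 11284 genes, so the numbers were taken to pair the samples and the fit with the number as a block is given where it changes a call.

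Named genes follow a rule that takes the core genes with the largest differences, the 4 regional markers, members of the 30 gene lists and the genes nearest to passing a tissue difference. It names 30 of the 68 genes described here, and the other 38 were chosen after their values were seen. A few genes are not reported here. The lists hold 416 entries, of which 406 matched a symbol. Members and lists were chosen with earlier results of these data known. Promoters are RefSeq windows of GRCm38.p6, found for 18 of the 26 core genes.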

Additional observations from a re-analysis of the deposited data

Results flagged for a closer look

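In the 4 ileum or the 4 duodenum libraries of each core gene, the gap of the most distant library to its nearest neighbour was divided by the whole range, in log2(RPKM + 1). Of 52 such groups of 4, 6 exceeded Dixon's 95% critical value, where chance flags about 1 in 20, and the groups span 3 tissues. The organoid library stood apart in 5 of the 6.

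Among the ileum libraries, organoids were high for LOC100043899 at 0.836, with 22.8 RPKM against at most 2.82 RPKM in the others. Organoids were high for Ghrl at 0.9, with 113 RPKM against at most 16.4 RPKM, and for Onecut2 at 0.917, with 1.39 RPKM against at most 0.125 RPKM. Among the duodenum libraries, organoids were high for 1110020C03Rik at 1.0, with 1.72 RPKM where the others were listed at 0. They were low for Serpina1b at 0.916, with 0.194 RPKM against at least 1.66 RPKM. For Hoxb7 in duodenum crypt replicate 2 stood apart at 1.0, with 0.167 RPKM where the others were listed at 0. With the others at 0 any value above 0 gives 1.0, so the flags of Hoxb7 and 1110020C03Rik were fixed in advance.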

How the results depend on the processing

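In this paragraph, core genes are those that passed in the setting named, with 1 sign in the tissues. They need not be among the original 26. The 26 genes that passed, 18 higher and 8 lower in ileum, became 162, 113 and 49 with the replicate block, and the core genes 161. With all 12 libraries there were 89, 60 and 29 and 89 core genes. Equal weight per tissue gave 15, 11 and 4 and 15 core genes. A pseudocount of 0.1 gave 42 genes, 15 of them lower, all 42 core, and a pseudocount of 3 gave 9, 7 and 2 and 9 core genes. No filter on low values gave 0 in every class. An RPKM of at least 1 in 3 libraries gave 13 lower genes. Quantile normalization gave 15 genes, 9 of them higher, all 15 core. limma-voom on recovered reads gave 50, 31 and 19 and 50 core genes. A fit with no mean-variance trend gave 7, 5 and 2 and 7 core genes. Of the original 26, 12 passed with equal weight per tissue, 24 with a pseudocount of 0.1 and 9 with a pseudocount of 3. With quantile normalization 15 of them passed, with limma-voom 21 and with no mean-variance trend 7. Leaving out 1 library gave 0 to 77 genes, 0 to 50 higher, 0 to 43 lower and 0 to 76 core. Of all calls 69.2% were higher in ileum, against 44.2% without duodenal crypt replicate 1, 80.6% without ileal crypt replicate 1 and 77.8% with a pseudocount of 3. The fits without 1 villus or 1 organoid library hold no pair of that tissue. The cause of these changes was not tested.

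Of the 26 core genes, 26 passed without replicate 1 of either crypt, 8 without duodenal crypt replicate 2, 14 without ileal crypt replicate 2, 14 without duodenal organoids, 18 without ileal organoids and 0 without either villus library. The differences between tissues had 362 genes for organoids and 497 for villi with no filter, of which 298 and 396 were listed at 0 in every crypt library, and 0 in the other alternatives. Single genes named in the text kept their direction in each alternative. The block removed no call of the 26. Genes near 1 read are limited by depth.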
